A study of Homo sapiens with 13 samples.

Results

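The proteasome promoters described here are the accessible regions over the transcription start sites (TSSs) of protein-coding genes whose symbols begin with PSMA to PSMG and a number. In the deposited peak table on hg19, a peak was taken when it overlapped the TSS of any transcript of such a gene in GENCODE release 44 on GRCh37 (the same assembly as hg19). By this rule 50 genes were eligible, 46 had a peak over a TSS, and together they had 52 of the 129347 peaks of the table. Of these peaks, 16 lay at 15 genes of the core particle, 19 at 17 genes of the lid or base of the regulatory particle, and 15 at 12 genes of assembly factors or activators, with PSMF1, an inhibitor, counted among the last. The other 2 lay at PSMC3IP and PSME3IP1, which carry the symbol of a proteasome gene in their names but encode binding partners and not subunits. They were kept as the rule found them and are given separately.

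ATAC-seq, in which the Tn5 transposase inserts sequencing adapters into open chromatin, was done on T98G, a long-established glioblastoma cell line of human origin. The table holds 3 G1 and 3 M-phase libraries. G1 cells were starved of serum for 72 h, while M-phase cells were starved for 48 h, released for 36 h into 20% serum containing 0.2 μg/mL nocodazole, which breaks down microtubules and arrests cells in mitosis, and then shaken off. Serum, nocodazole, shake-off and sequencing platform (HiSeq only in G1, HiSeq and NextSeq in M-phase) differed between the phases as well. Depth did too, with 4333935 to 5365024 reads in peaks in G1 libraries and 12470564 to 14202790 in M-phase libraries. The effects of all these and that of the phase cannot be told apart.

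The proteasome is the protease that degrades ubiquitin-tagged proteins. Its core particle is a barrel of stacked rings, outer rings of alpha subunits that gate the entrance and inner rings of beta subunits that hold the catalytic sites. The regulatory particle consists of a base, whose ATPases unfold substrates, and a lid, which removes ubiquitin. Dedicated chaperones assemble both particles, and alternative activators can replace the regulatory particle on the core. In mitosis the proteasome destroys cyclin B and securin after the anaphase-promoting complex has marked them. The transcription factor NFE2L1 binds antioxidant response elements in proteasome gene promoters and is known to raise their transcription when the proteasome is inhibited, and NF-Y and ETS factors are known to bind many promoters of this kind.

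The sequences upstream of 6 starts are printed because these promoters span the range of changes described next: PSMB3 rose most among core particle genes, PSMD12 among lid or base genes and PSMG1 among genes with their own promoter in the third class, PSMA7 had the highest count of the core, and PSMB5 and PSMD10 had the most negative changes. Each sequence is the 200 bases before the canonical start on GRCh37, read 5′ to 3′ on the strand of the gene. Capitals mark the core of the antioxidant response element (TGACNNNGC), the NF-Y letters (CCAAT) and the ETS letters (CCGGAAG) on either strand.
PSMB3 (chr17:36908794-36908993, + strand): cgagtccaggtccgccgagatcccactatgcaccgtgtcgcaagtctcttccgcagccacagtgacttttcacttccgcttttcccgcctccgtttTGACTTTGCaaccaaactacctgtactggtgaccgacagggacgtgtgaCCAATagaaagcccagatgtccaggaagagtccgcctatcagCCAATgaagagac
PSMA7 (chr20:60718451-60718650, − strand): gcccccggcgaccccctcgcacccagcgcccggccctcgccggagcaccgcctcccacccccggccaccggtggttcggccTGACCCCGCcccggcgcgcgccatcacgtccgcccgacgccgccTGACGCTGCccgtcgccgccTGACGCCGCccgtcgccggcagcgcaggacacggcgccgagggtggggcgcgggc
PSMD12 (chr17:65362694-65362893, − strand): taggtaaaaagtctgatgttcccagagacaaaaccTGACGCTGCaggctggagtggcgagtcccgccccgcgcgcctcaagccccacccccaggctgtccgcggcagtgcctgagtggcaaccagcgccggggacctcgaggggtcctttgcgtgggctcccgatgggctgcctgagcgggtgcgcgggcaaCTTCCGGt
PSMG1 (chr21:40555378-40555577, − strand): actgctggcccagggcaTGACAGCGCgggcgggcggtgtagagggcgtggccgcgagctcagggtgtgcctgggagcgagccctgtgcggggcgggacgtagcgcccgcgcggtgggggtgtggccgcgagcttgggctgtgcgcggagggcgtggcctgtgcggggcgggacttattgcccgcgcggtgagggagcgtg
PSMB5 (chr14:23504110-23504309, − strand): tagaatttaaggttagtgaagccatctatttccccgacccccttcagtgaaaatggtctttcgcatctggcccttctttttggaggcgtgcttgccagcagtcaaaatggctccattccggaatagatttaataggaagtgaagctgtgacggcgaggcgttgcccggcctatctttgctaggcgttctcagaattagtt
PSMD10 (chrX:107334773-107334972, − strand): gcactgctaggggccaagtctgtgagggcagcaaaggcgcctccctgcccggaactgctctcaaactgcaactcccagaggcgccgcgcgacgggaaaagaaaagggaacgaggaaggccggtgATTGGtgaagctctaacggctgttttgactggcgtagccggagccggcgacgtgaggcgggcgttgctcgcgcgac

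All 8 motifs searched were fixed letters on both strands of a window from 250 bases before to 50 bases after the canonical start of 50 genes. They were the 3 motifs marked in capitals and those of YY1, SP/KLF, NRF1, CRE and TATA, whose letters are given with their counts. Matches of different motifs may overlap, since the first letters of the response element are also those of the CRE, and the last letters of the ETS motif are the first of the YY1 motif. The antioxidant response element core was present in 14 of the 50 windows (28%), against 14% of 19894 windows of all protein-coding genes and 14.9% of the 12394 of them that lie at a peak. ETS letters were present in 20 windows (40%), against 14.1% of all windows and 20.4% of those at a peak. The PSMA7 window held 3 matches to the response element core, and the PSMD9 and PSMD3 windows held 2 each. NF-Y letters were found in 22 windows (44% against 36.0% and 36.3%) and the YY1 letters AAGATGGCG in 4 (8% against 2.85% and 4.36%). The SP/KLF letters GGGCGG were found in 35 windows (70% against 61.4% and 76.7%), and the TATA letters TATAAA in 5 (10% against 9.62% and 4.78%). The NRF1 letters GCGCATGC were in 2 windows (4% against 4.26% and 5.96%), and the CRE letters TGACGTCA in 0 (against 2.68% and 3.67%). A match is a stretch of letters and not a measured binding site, and these shares were not tested.

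Proteasome promoter peaks were close to other promoter peaks in width and CpG content. The median width of the 52 peaks was 1177 bp against 1235 bp for the 13131 tested peaks over protein-coding TSSs, the median GC content 59.0% against 63.4%, and the median observed over expected CpG ratio 0.74 against 0.75. This ratio was above 0.6 in 48 of the 52 peaks (92.3%) and in 81.1% of protein-coding promoter peaks. The peak of PSMB10 was the exception in position, since it began 157 bp downstream of the canonical start and lay over the start of another PSMB10 transcript and of the readthrough gene ENSG00000261884.

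**Figure D1:**
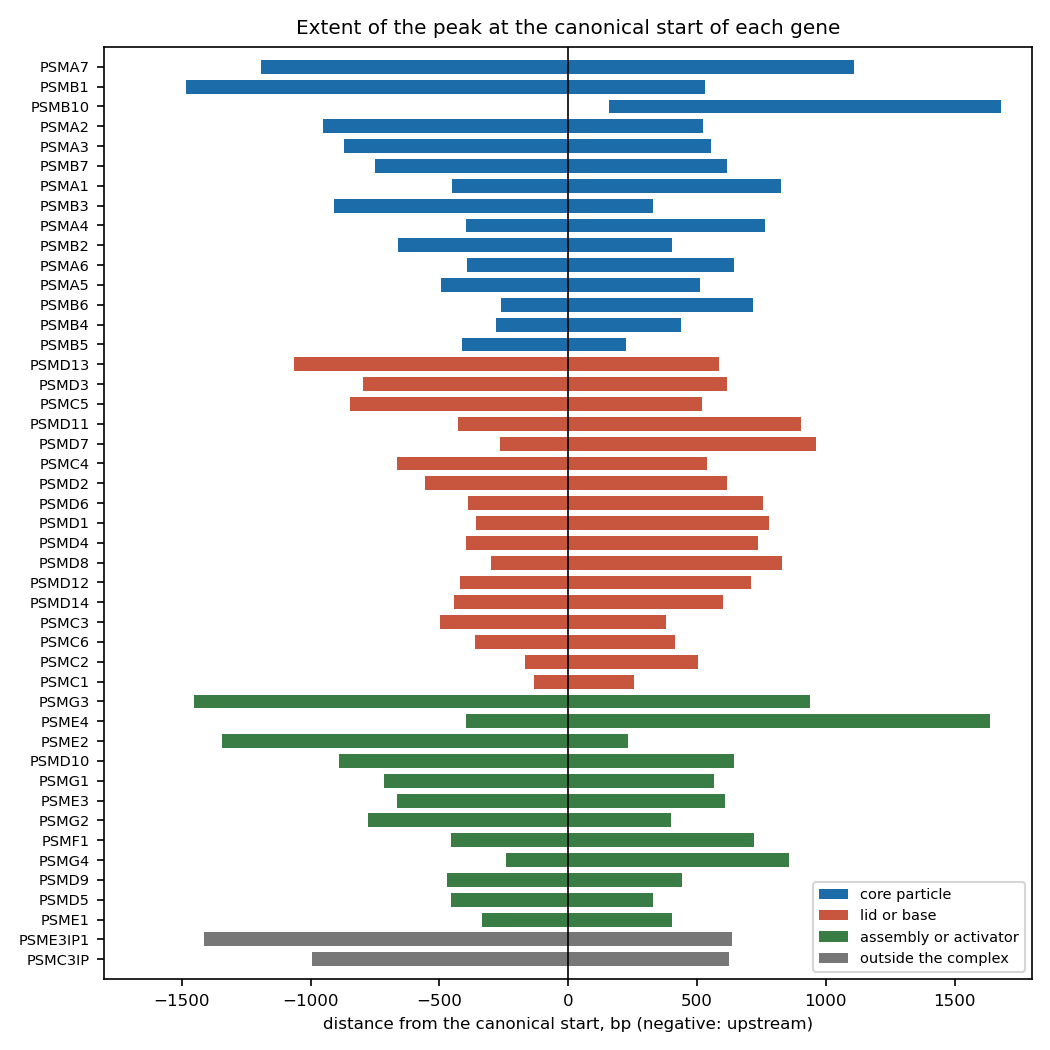
Extent of the peak at the canonical start of each gene, in bp from that start (negative values are upstream), with 1 bar per gene from the upstream to the downstream edge, coloured by class. The bars of all genes other than PSMB10 cross 0, and that of PSMB10 begins 157 bp downstream.

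On the scale of the deposited counts, proteasome promoters were mostly more accessible in M-phase, and the change was positive at nearly all of them. Of the 52 peaks, all of which passed the filter on low counts, 36 (69.2%) were higher in M-phase, 1 (1.92%) was lower, and 15 did not pass the threshold (limma on log2(scaled count + 8), Benjamini-Hochberg adjusted p under 0.05 over all 73121 peaks tested). The background has to be read with these counts, because promoters in general rose in these values: 47.1% of the protein-coding promoter peaks were called higher and 5.29% lower, while 14.3% of all tested peaks were called higher and 13.1% lower. The median log2 change of the 52 peaks was 0.74 (interquartile range 0.39 to 0.99, range −0.55 to 1.39), against 0.45 for protein-coding promoter peaks and 0.02 for all peaks. The change was positive at 48 of the 52 peaks (92.3%), against 75.8% of protein-coding promoter peaks. All 3 M-phase libraries lay above all 3 G1 libraries at 38 peaks (73.1%), against 52.3% of protein-coding promoter peaks, all lay below at 1, and the phases overlapped at 13. Since the labels do not say that the libraries came from separate cultures, the p-values measure the spread between these libraries only.

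Because promoters as a whole shifted, changes relative to that shift are given too. With each library scaled to the same median over protein-coding promoter peaks, 22 of the 52 peaks (42.3%) were higher in M-phase and 4 (7.69%) lower, against 25.8% and 22.8% of protein-coding promoter peaks, and the median log2 change of the 52 was 0.27. The 4 lower peaks were those of PSMD10, PSMB5 and PSMD5 and the main peak of PSMA1. With a loess normalization that follows the count level, 23 peaks were higher and 2 lower, with a median of 0.35, against 21.9% higher and 18.1% lower and a median of 0.05 for protein-coding promoter peaks. Of the 36 peaks higher on the deposited scale, 17 were higher under all 5 other scalings, at PSMA4, PSMA6, PSMB3, PSMB10, PSMC6, PSMD2, PSMD4, PSMD7, PSMD9, PSMD12, PSMD13, PSMG1 and PSME3IP1 and at both peaks of PSME3 and of PSMG2. Another 8, at PSMA2, PSMA7, PSMC4, PSMC5, PSMD8, PSME2, PSME4 and PSMG3, passed neither with loess nor with equal promoter medians. The peaks of PSMA5, PSMB1, PSMC3IP, PSMD3 and PSMD11 passed with equal promoter medians but not with loess. Those of PSMA3, PSMB2, PSMD6 and PSME1 and the main peaks of PSMD1 and PSMG4 passed with loess but not with equal promoter medians. On the log2 scale the median of the proteasome promoters lay below that of protein-coding promoters by 0.22, 0.16 and 0.11 in G1 replicates 1, 2 and 3, and above it by 0.20, 0.24 and 0.14 in M-phase replicates 1, 2 and 3. The proteasome promoters were thus on the lower side of promoters in every G1 library and on the upper side in every M-phase library.

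**Figure D2:**
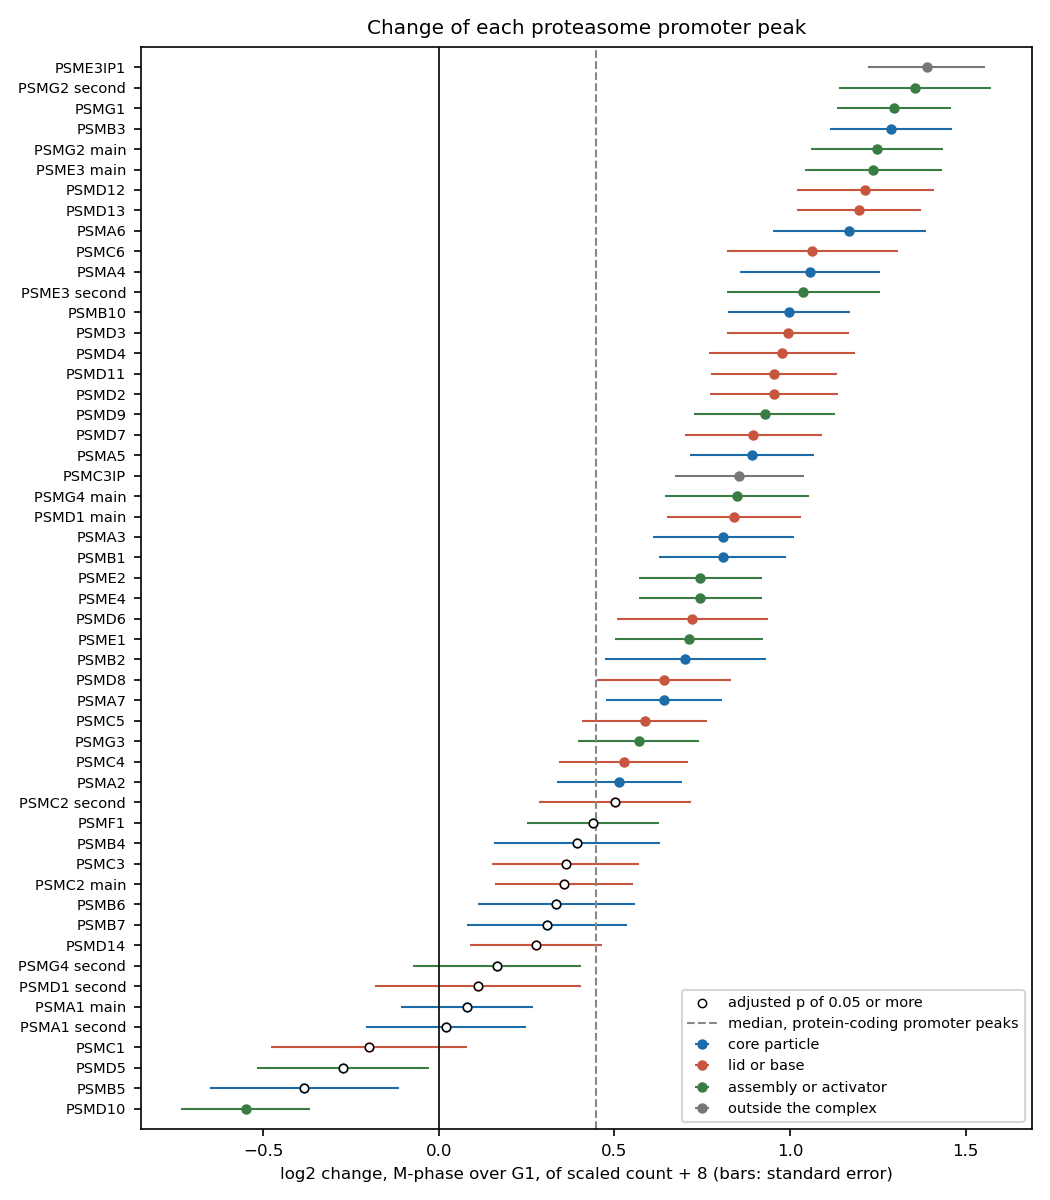
Log2 change from G1 to M-phase of log2(scaled count + 8) at each of the 52 peaks, with bars of 1 standard error, coloured by class, with 1 row per peak; open circles have an adjusted p of 0.05 or more, and the dashed line is the median of protein-coding promoter peaks (0.45). Of the 52 points, 48 lie to the right of 0, and the filled point to the left of 0 is PSMD10.

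At the core particle, 10 of 16 peaks were higher in M-phase and 0 lower, with a median log2 change of 0.67. The alpha ring, the gate of the barrel, had 6 of 8 peaks higher (75%, median 0.73), against 47.1% of protein-coding promoter peaks with a median of 0.45. The peaks of the beta ring, without the inducible PSMB10, had 3 of 7 higher (42.9%, median 0.39), no more than that background. That background holds promoters of all levels, while the beta ring peaks had low counts (median mean 73.3 against 169.1 scaled counts). The peaks of PSMB2, PSMB4, PSMB5, PSMB6 and PSMB7 had means below 87.8, and of these only PSMB2 was called higher. Those of PSMB1 and PSMB3 had means of 257.7 and 322.6. Of protein-coding promoter peaks with means up to 87.8, 10.2% were called higher, with a median of −0.03. The alpha ring peaks had a median mean of 193.8. Of protein-coding promoter peaks with means from 169.2 to 285.2, 60.1% were called higher, with a median of 0.58. With loess and with equal promoter medians alike, 3 of the 8 alpha ring peaks were higher and 1 was lower. These medians were not compared by a test.

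Among alpha subunit genes, the peak of PSMA6 (chr14:35761197-35762230) had 51.7, 44.5 and 63.0 scaled counts in G1 replicates 1, 2 and 3, and 126.1, 129.8 and 129.0 in M-phase replicates 1, 2 and 3. The G1 libraries were all lower than the M-phase libraries, which lay close together, and the log2 change was 1.17 (SE 0.22, adjusted p = 1.19e-05). At PSMA4 (chr15:78832390-78833550) the G1 libraries had 115.3, 82.8 and 145.0 and the M-phase libraries 187.0, 278.1 and 268.5, a log2 change of 1.06 (SE 0.20, adjusted p = 1.46e-05). The phases did not overlap there either, although M-phase replicate 1 was well below the other M-phase libraries.

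PSMA7 (chr20:60717342-60719641) had the highest mean count of the core, in a peak of 2300 bp that also covers the start of SS18L1. Its G1 libraries had 301.2, 321.9 and 364.0 scaled counts and its M-phase libraries 462.6, 505.6 and 586.1, a log2 change of 0.64 (SE 0.17, adjusted p = 0.00157), which turned to −0.16 with the loess normalization (adjusted p = 0.324). The libraries of the phases did not overlap in the deposited scale. The peaks of PSMA5 and PSMA3 rose by 0.89 and 0.81 on the log2 scale. With loess PSMA5 was at 0.25 (adjusted p = 0.151), and with equal promoter medians PSMA3 was at 0.35 (adjusted p = 0.0929). The peak of PSMA2, shared with MRPL32, rose by 0.51 (adjusted p = 0.021), although PSMA2 was at −0.10 with loess (adjusted p = 0.607) and 0.04 with equal promoter medians (adjusted p = 0.843).

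PSMA1 stood apart from the other alpha subunit genes. Its main peak (chr11:14541108-14542384) had 193.9, 160.2 and 258.0 scaled counts in G1 and 196.9, 227.0 and 213.2 in M-phase. The M-phase values lay inside the G1 range, with a log2 change of 0.08 (SE 0.19, adjusted p = 0.807) that was negative under 4 other scalings, among them −0.39 with equal promoter medians (adjusted p = 0.0298) and −0.43 with loess (adjusted p = 0.0231). Another PSMA1 peak, over the start of a distant transcript inside the PDE3B promoter, had a log2 change of 0.02 (adjusted p = 0.962).

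Among beta subunit genes, PSMB3 (chr17:36908087-36909325), which encodes a structural subunit without protease activity, had the largest change. The G1 libraries had 188.9, 188.3 and 174.0 scaled counts and the M-phase libraries 428.8, 522.5 and 433.1. The phases were far apart relative to the spread within each, and the log2 change was 1.29 (SE 0.17, adjusted p = 4.33e-09). Its promoter, printed above, holds 1 response element core and 2 NF-Y matches. The peaks of PSMB1, which shares its promoter with TBP, and PSMB2 rose by 0.81 and 0.70. With loess PSMB1 was at 0.23 (adjusted p = 0.225), and with equal promoter medians PSMB2 was at 0.26 (adjusted p = 0.358).

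The genes of the constitutive catalytic subunits did not pass the test. Their mean counts were all below 87.8, a range in which 10.2% of protein-coding promoter peaks were called higher. At PSMB5 (chr14:23503884-23504523), the chymotrypsin-like site, the libraries had 33.8, 30.5 and 54.0 scaled counts in G1 and 32.1, 20.2 and 31.8 in M-phase, with a log2 change of −0.38 (SE 0.27, adjusted p = 0.312). The phases overlapped, and G1 replicate 3 was the highest library. At PSMB7 (chr9:127177105-127178472), the trypsin-like site, they had 62.6, 70.3 and 56.0 in G1 and 93.5, 89.8 and 59.7 in M-phase, with a log2 change of 0.31 (SE 0.23, adjusted p = 0.343). Here M-phase replicate 3 lay among the G1 libraries and the other M-phase libraries above them. At PSMB6, the caspase-like site, the log2 change was 0.33 (SE 0.22, adjusted p = 0.289), and at PSMB4, a structural subunit, it was 0.39 (SE 0.24, adjusted p = 0.228). With equal promoter medians the PSMB5 peak was lower in M-phase by −0.77 (adjusted p = 0.0172), PSMB6 and PSMB7 changed by −0.11 and −0.13 and did not pass, and PSMB4 by −0.04.

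PSMB10, an interferon-inducible catalytic subunit of the immunoproteasome, had a peak (chr16:67969075-67970596) with 205.8, 183.6 and 211.0 scaled counts in G1 and 389.7, 418.2 and 411.9 in M-phase. The phases were clearly separated, with a log2 change of 0.996 (SE 0.17, adjusted p = 2.93e-06). No peak of the table used here lay over a TSS of the other inducible or tissue-restricted core genes. For PSMB8 and PSMB9, also immunoproteasome subunits, no peak of that table lay within 60 kb and their promoters were not analysed here. Both genes lie in a stretch of 2034422 bp without any peak in that table (between chr6:31325112 and 33359534), where other neighbouring peaks of the chromosome were a median of 18087 bp apart, so nothing is drawn here about whether these promoters were open. The nearest peak to PSMA8, a testis subunit, was 42480 bp away at SS18, and the nearest to PSMB11, a thymus subunit, was the PSMB5 peak at 6898 bp.

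At the lid or base, 13 of 19 peaks (68.4%, against 47.1% of protein-coding promoter peaks) were higher in M-phase and 0 lower. The median log2 change was 0.72. At an unadjusted p under 0.05 in limma, and with edgeR or DESeq2 on recovered reads, 0 peaks of the core, of the lid or base and of the pathway list given further on were lower as well. These tests all keep the authors' scaling, under which 5.29% of protein-coding promoter peaks were called lower. With equal promoter medians 2 core, 0 lid or base and 6 pathway peaks were lower, and with loess 1, 0 and 8. The absence of lower peaks thus depended on the scaling for the core and the pathway list. The lid genes had 7 of 8 peaks higher (median 0.93), the non-ATPase genes of the base 3 of 4 (median 0.90), and the ATPase genes 3 of 7 (42.9%, median 0.50). That background holds promoters of all levels, while the median mean was 209.0 scaled counts for the lid peaks and 113.6 for the ATPase peaks. Of protein-coding promoter peaks with means from 169.2 to 285.2, 60.1% were called higher (median 0.58). With means from 87.8 to 169.1, 39.8% were (median 0.37). The subclasses were not compared by a test. With loess the median of the ATPase genes was 0.03. Those of the alpha and beta rings were 0.12 and 0.27, so the order of the rings depended on the scaling.

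PSMD12 (chr17:65361985-65363111), a scaffold subunit of the lid, had 97.4, 82.8 and 105.0 scaled counts in G1 and 225.3, 235.3 and 230.5 in M-phase. Every M-phase library was above every G1 library, with a log2 change of 1.21 (SE 0.20, adjusted p = 4.42e-07). PSMD13 (chr11:235910-237560), another lid scaffold whose peak also covers a start of SIRT3, had 159.1, 192.2 and 267.0 in G1 and 480.7, 447.9 and 488.9 in M-phase, with a log2 change of 1.20 (SE 0.18, adjusted p = 5.42e-08). The phases did not overlap there, and G1 replicate 3 was the highest of its phase. The peaks of PSMD3, PSMD11, PSMD7, PSMD6 and PSMD8 rose by 0.99, 0.95, 0.90, 0.72 and 0.64. With loess those of PSMD3, PSMD11 and PSMD8 did not pass (adjusted p = 0.057, 0.0522 and 0.576). With equal promoter medians PSMD6 was at 0.27 (adjusted p = 0.27).

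PSMD14 (chr2:162164493-162165535), the lid enzyme that removes ubiquitin chains, was the lid gene that did not pass. Its libraries had 158.1, 153.1 and 231.0 scaled counts in G1 and 218.3, 212.2 and 219.9 in M-phase. The M-phase values lay between the low and the high G1 values, and the log2 change was 0.28 (SE 0.19, adjusted p = 0.298). Without G1 replicate 3 it was 0.46 (adjusted p = 0.0354), and with equal promoter medians it was −0.19.

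In the base, the peaks of the scaffold genes PSMD2 and PSMD1 rose by 0.95 and 0.84, and that of PSMD4, a ubiquitin receptor, by 0.98. A weak additional peak of PSMD1, over the start of another transcript, had a mean of 9.2 scaled counts and a log2 change of 0.11 (adjusted p = 0.828). Among the ATPase genes, PSMC6 (chr14:53173557-53174334) had 27.8, 26.6 and 41.0 scaled counts in G1 and 66.7, 70.5 and 86.6 in M-phase. The phases did not overlap although the counts were low, with a log2 change of 1.06 (SE 0.24, adjusted p = 0.000354). The peaks of PSMC5, shared with FTSJ3, and PSMC4 rose by 0.59 and 0.53, but with loess they were at 0.03 (adjusted p = 0.923) and −0.03 (adjusted p = 0.92). PSMC3 had a log2 change of 0.36 (adjusted p = 0.206), or 0.54 without G1 replicate 3 (adjusted p = 0.0297).

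PSMC1 (chr14:90722765-90723152) had 25.8, 26.6 and 23.0 scaled counts in G1 and 17.3, 28.0 and 18.3 in M-phase. These libraries overlapped, with a log2 change of −0.20 (SE 0.28, adjusted p = 0.658). The main peak of PSMC2 (chr7:102984504-102985452) lies over a start shared with DNAJC2, upstream of the canonical one, and had 110.4, 121.9 and 159.0 in G1 and 157.8, 168.5 and 176.1 in M-phase. The highest G1 library just exceeded the lowest M-phase library, and the log2 change was 0.36 (SE 0.20, adjusted p = 0.183), or 0.50 without G1 replicate 3 (adjusted p = 0.0318). The PSMC2 peak at the canonical start had a log2 change of 0.50 (SE 0.22, adjusted p = 0.0739).

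At assembly factors and activators, 11 of 15 peaks (73.3%) were higher in M-phase and 1 (6.67%) lower, against 47.1% and 5.29% of protein-coding promoter peaks. The median log2 change was 0.75. The core chaperone genes had 5 of 6 peaks higher (median 1.05) and the activator genes 5 of 5 (median 0.75), with both PSME3 peaks counted. The 3 peaks of base chaperone genes differed from each other, with 1 higher and 1 lower. With equal promoter medians, 6 of the 15 peaks were higher (40%) and 2 lower (13.3%), against 25.8% and 22.8% of protein-coding promoter peaks. On that scale 3 of 6 core chaperone peaks and 2 of 5 activator peaks were higher.

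PSMG1 (chr21:40554812-40556092), which pairs with PSMG2 to build the alpha ring, had 312.2, 250 and 332.0 scaled counts in G1 and 638.1, 792.3 and 796.4 in M-phase. The lowest M-phase library was far above the highest G1 library, and the log2 change was 1.30 (SE 0.16, adjusted p = 4.77e-10). Per kb of peak it had the highest level of the 52 peaks, with 406.1 scaled counts per kb over all libraries, against a median of 144.7 over the 52 and 136.0 over protein-coding promoter peaks.

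PSMG2 had 2 peaks, each shared with another gene. The one with the higher counts (chr18:12657023-12658652) lies over the start of a long transcript in the SPIRE1 promoter, far upstream of the canonical start, and had 155.1, 113.3 and 123.0 scaled counts in G1 and 285.9, 300 and 375.8 in M-phase, a log2 change of 1.25 (SE 0.19, adjusted p = 7.94e-08). The one at the canonical start (chr18:12702264-12703440), shared with CEP76, had 45.7, 51.6 and 60 in G1 and 126.9, 134.7 and 181.9 in M-phase, a log2 change of 1.36 (SE 0.22, adjusted p = 4.27e-07). Neither peak had overlapping phases. For the other pair of core chaperones, the PSMG3 peak rose by 0.57 but was at −0.09 with loess (adjusted p = 0.64), and the main PSMG4 peak rose by 0.85, while a PSMG4 peak over a start in the TUBB2B promoter had a log2 change of 0.17 (adjusted p = 0.671).

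The activator genes PSME1 and PSME2 encode the subunits of the interferon-inducible cap of the core. PSME1 (chr14:24605068-24605807) had 87.5, 75 and 83.0 scaled counts in G1 and 126.5, 115.4 and 183.3 in M-phase. The phases did not overlap, and the log2 change was 0.71 (SE 0.21, adjusted p = 0.00623), but without M-phase replicate 3, the highest library, it was 0.52 and did not pass (adjusted p = 0.124). With equal promoter medians it was 0.26 and did not pass either (adjusted p = 0.29). PSME2 (chr14:24615585-24617162), whose peak also covers the start of RNF31, had 236.6, 191.4 and 311.0 in G1 and 405.0, 453.2 and 376.8 in M-phase, with a log2 change of 0.75 (SE 0.18, adjusted p = 0.00052), or 0.06 with loess (adjusted p = 0.769) and 0.27 with equal promoter medians (adjusted p = 0.0916). On the deposited scale all its M-phase libraries were above its G1 libraries.

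PSME3, the nuclear activator, had a main peak (chr17:40984751-40986023) with 97.4, 91.4 and 132.0 scaled counts in G1 and 213.4, 269.1 and 305.1 in M-phase. The phases did not overlap and the log2 change was 1.24 (SE 0.20, adjusted p = 2.93e-07). An upstream PSME3 peak rose by 1.04, and both of these peaks also cover a start of BECN1. PSME4, an activator of the nucleus and testis that shares its promoter with ACYP2, rose by 0.74, or 0.08 with loess (adjusted p = 0.706). At PSMF1 (chr20:1098789-1099965), the inhibitor, the libraries had 144.2, 156.3 and 229.0 in G1 and 215.9, 234.9 and 263.7 in M-phase, so that G1 replicate 3 reached into the M-phase range. The log2 change was 0.44 (SE 0.19, adjusted p = 0.0732), and 0.63 without G1 replicate 3 (adjusted p = 0.00226).

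PSMD10 (chrX:107334129-107335663), also called gankyrin, a chaperone that holds base ATPases during assembly, was the only one of the 52 peaks called lower in M-phase. Its libraries had 286.3, 252.3 and 474.0 scaled counts in G1 and 234.8, 212.6 and 211.7 in M-phase. All G1 libraries were above all M-phase libraries, G1 replicate 3 by far the most, and the log2 change was −0.55 (SE 0.18, adjusted p = 0.0174). The fall did not pass without G1 replicate 3 (−0.28, adjusted p = 0.208), without M-phase replicate 2 (−0.53, adjusted p = 0.0798) or without M-phase replicate 3 (−0.53, adjusted p = 0.0772), and with equal promoter medians it was −1.02 (adjusted p = 4.28e-08). The peak also covers a start of ATG4A, so the change cannot be assigned to either gene. PSMD5 (chr9:123604869-123605654), another base chaperone, had 40.8, 57.0 and 83.0 in G1 and 46.1, 49.4 and 44.7 in M-phase, with overlapping phases and a log2 change of −0.27 (SE 0.24, adjusted p = 0.449). The peak of PSMD9, the remaining base chaperone, rose by 0.93 (SE 0.20, adjusted p = 0.00015).

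**Figure D3:**
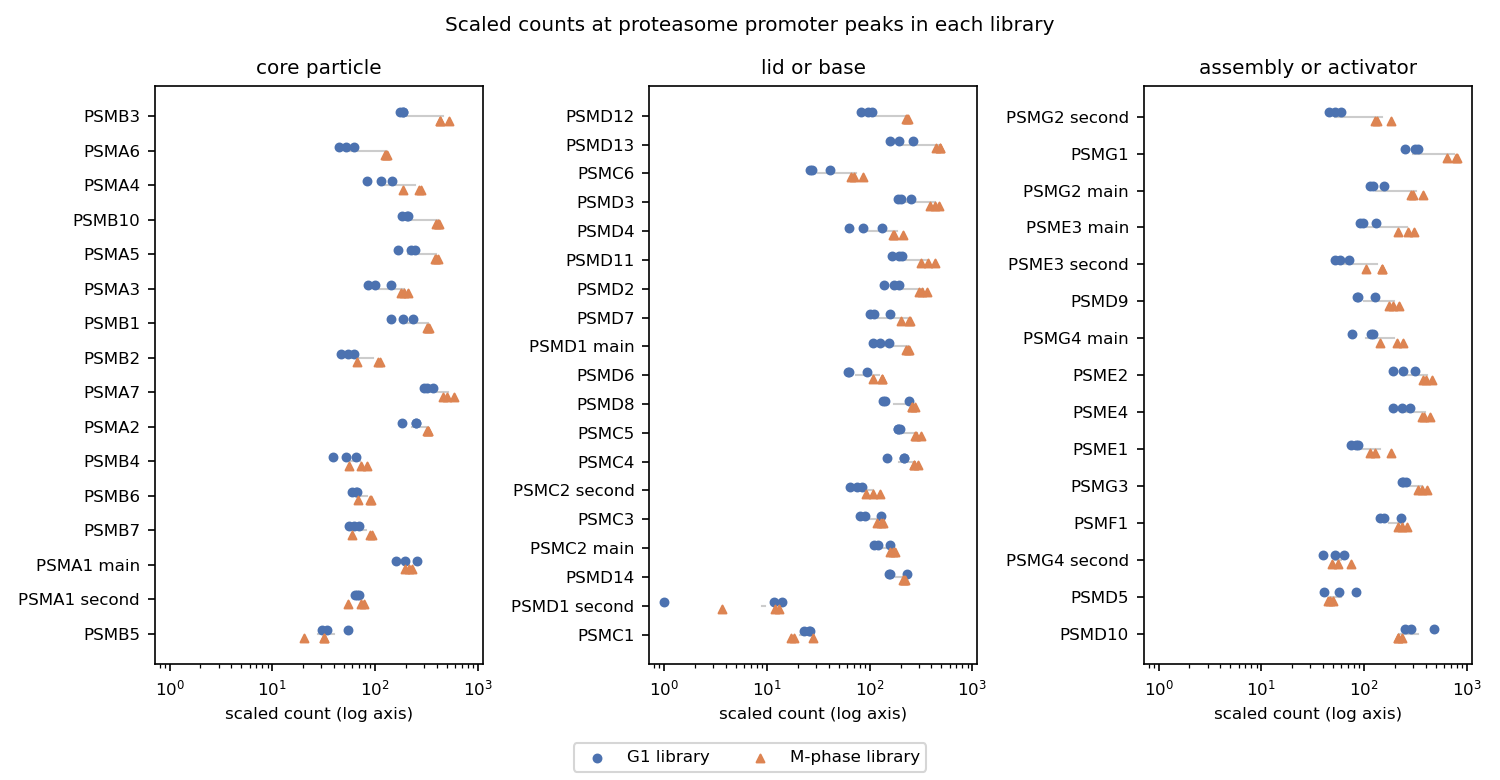
Scaled counts on a log axis at the 50 peaks of core particle, lid or base, and assembly or activator genes, with blue circles for the 3 G1 libraries and orange triangles for the 3 M-phase libraries, joined by a grey line between the means of the phases. Orange lies to the right of blue in most rows, and at PSMD10 all 3 triangles lie to the left.

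The peaks of the binding partners also rose. PSMC3IP, a meiotic recombination factor, rose by 0.86 (SE 0.18, adjusted p = 0.00014), and PSME3IP1, a nuclear partner of PSME3 whose peak also covers a start of RSPRY1, by 1.39 (SE 0.17, adjusted p = 7.63e-11), the largest change of the 52 peaks. Without these genes, 34 of 50 peaks were higher and 1 lower.

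Peaks shared with another protein-coding gene and peaks that were not had close medians on the deposited scale. Of the 52 peaks, 19 also covered a TSS of another protein-coding gene, and 14 of these (73.7%) were higher and 1 lower (median log2 change 0.75). Of the 33 others, 22 (66.7%) were higher and 0 lower (median 0.72), and of all protein-coding promoter peaks 47.1% were higher. The shared peaks had higher counts (median 241.5 against 151.1). With loess the medians were 0.20 for shared peaks, with 2 lower, and 0.36 for the others, with 0 lower.

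On the deposited scale the size of the change went with the level of the peak, as it did for promoters in general. When protein-coding promoter peaks were divided into 4 equal parts by mean scaled count, from the lowest to the highest, 10.2%, 39.8%, 60.1% and 78.2% of promoter peaks were called higher, and of the proteasome promoters 2 of 11, 10 of 13, 13 of 17 and 11 of 11. The median log2 changes of promoter peaks in these parts were −0.03, 0.37, 0.58 and 0.84, and those of the proteasome promoters 0.17, 0.85, 0.81 and 0.99. The proteasome promoters were thus above the median of promoters of like level in each of them, by differences that were not tested. With loess, which follows the count level, the medians of promoter peaks in these parts were 0.01, 0.09, 0.07 and 0.04. Those of the proteasome promoters were 0.20, 0.55, 0.23 and 0.33, without a steady rise. Across the 52 peaks, which come from the same 6 libraries, the log2 change and the log2 mean count had a Pearson r of 0.50 and a Spearman rho of 0.42, which is a description only. With width these were 0.33 and 0.34, with GC content 0.26 and 0.33, and with the CpG ratio 0.23 and 0.17.

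**Figure D4:**
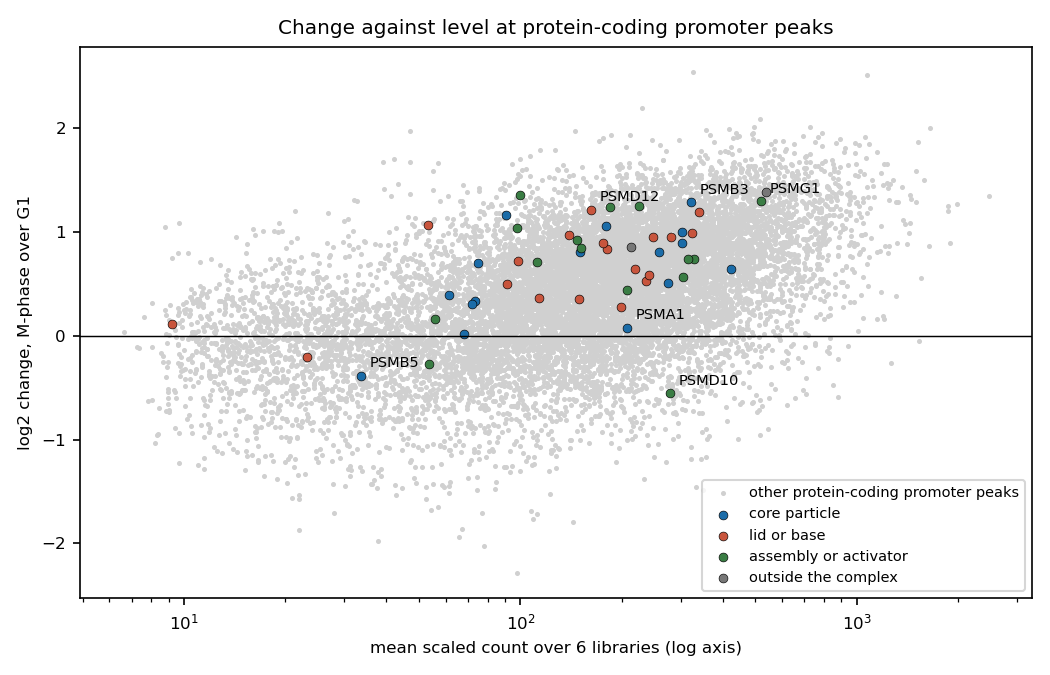
Log2 change from G1 to M-phase against the mean scaled count over 6 libraries (log axis) at 13131 protein-coding promoter peaks, with the 52 proteasome promoters coloured by class and the others in grey. Changes increase with the mean in both, and PSMD10, at a mean of 278.6, lies well below the other coloured points of that level.

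Promoters with and without a response element core in the window had close medians too. Of the 13 genes with the core and a peak over the canonical start, 11 had this peak higher (median log2 change 0.75), and of the 32 without it, 22 had (median 0.77). For ETS letters the counts were 14 of 19 (median 0.81) and 19 of 26 (median 0.73). Of all protein-coding promoter peaks 47.1% were called higher on the same scale. Counts with and without the letters were not compared by a test. PSMA7 with 3 matches and PSMB3 with 1 had log2 changes of 0.64 and 1.29, and PSMD5, with 1 match, had −0.27.

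Inside 12 of the genes, 27 peaks lay away from any TSS. Of these 27 peaks, 15 passed the filter, 4 were higher and 2 lower (median log2 change −0.06), against 6.51% higher and 15% lower of the 57621 tested peaks away from any TSS (median −0.05). PSMF1 had one of each kind: a peak at chr20:1127938-1128448 with 3.0, 26.6 and 9.0 scaled counts in G1 and 42.4, 37.1 and 24.5 in M-phase rose by 1.17 (adjusted p = 0.00156), and a peak at chr20:1103225-1103897 with 71.6, 93.0 and 85.0 in G1 and 26.8, 41.6 and 37.5 in M-phase fell by 1.08 (adjusted p = 0.000198). In the rising peak G1 replicate 2 was above the lowest M-phase library, and in the falling peak the phases did not overlap. Within PSMB7, whose promoter did not pass, a peak at chr9:127154546-127155573 with 47.7, 50 and 65.0 in G1 and 110.0, 147.1 and 120.3 in M-phase rose by 1.11 (adjusted p = 3.71e-05). The remaining higher peaks, at PSMB2 (chr1:36106177-36106465) and PSMG2 (chr18:12703738-12703962), lay just beside promoter peaks of these genes. Their G1 means were only 5.7 and 3.8 scaled counts. The remaining lower peak, at PSMA1 (chr11:14600189-14600304), had a log2 change of −1.14 (adjusted p = 0.000815). Its counts were low as well, with means of 16.7 in G1 and 3.2 in M-phase. The peaks named here were chosen after their values were seen.

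**Figure D5:**
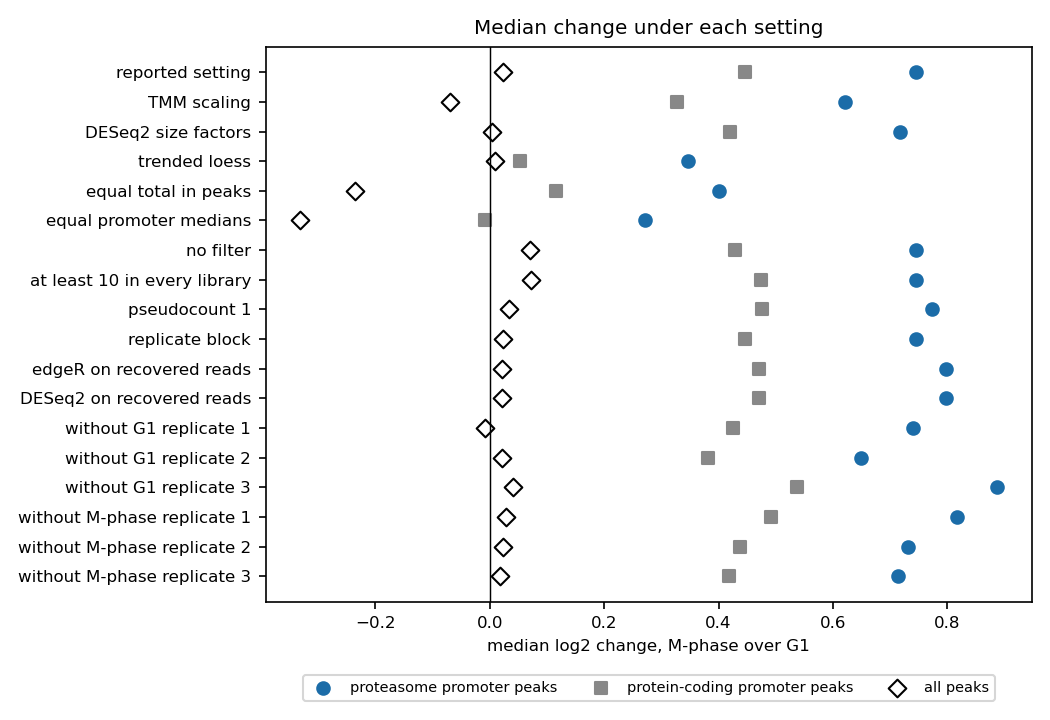
Median log2 change from G1 to M-phase of the 52 proteasome promoters (circles), protein-coding promoter peaks (squares) and all tested peaks (diamonds) in the reported setting and under each alternative scaling, filter, test and left-out library. The circle lies to the right of the square in every row, and the circles span 0.27 with equal promoter medians to 0.89 without G1 replicate 3.

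Among other genes of the ubiquitin and proteasome pathway, 27 of 28 listed genes had a peak over a TSS, and the main peaks of 21 were higher and 0 lower. Of all 32 pathway peaks 22 were higher (68.8%, against 47.1% of protein-coding promoter peaks). With the loess normalization 7 were higher and 8 lower, with 21.9% and 18.1% as the background, so the calls of this list depend on the scaling. NFE2L1, the activator of proteasome genes, went from 386.2 ± 86.9 scaled counts in G1 to 841.5 ± 70.1 in M-phase (SD, n = 3, log2 change 1.13, adjusted p = 1.98e-08). POMP, which matures the core, had a log2 change of 0.53 (adjusted p = 0.0304), ADRM1, a ubiquitin receptor of the base, 1.09 (adjusted p = 1.28e-08), and SEM1, the smallest lid subunit, 0.05 (adjusted p = 0.867).

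The libraries bear on these values in several ways. The scaled counts in peaks summed to between 4191845 and 5092426 in G1 and to between 5475345 and 6000423 in M-phase, so the totals in peaks were unequal after the authors' scaling. G1 replicate 3 was the highest G1 library at 35 of the 52 peaks, and at 66.5% of protein-coding promoter peaks. Its part in single results was not tested beyond leaving it out, after which 40 of the 52 peaks were higher and 0 lower, with a median log2 change of 0.89. Leaving out other libraries removed the call at PSMB2 (lowest log2 change 0.58, adjusted p = 0.131), PSMD6 (0.68, adjusted p = 0.0515), PSMG3 (0.50, adjusted p = 0.0844), PSMC5 (0.53, adjusted p = 0.0731) and PSMD8 (0.50, adjusted p = 0.0832), and at PSMA2 and PSMC4 with any 1 of 4 libraries left out (0.38 and 0.35 without G1 replicate 2, adjusted p = 0.105 and 0.156). Glial and mesenchymal markers fixed for T98G were in part without a peak: VIM, CD44, SOX2 and OLIG2 had one over a TSS, with SOX2 too low to be tested, and NES, GFAP and S100B had none in the table used here, while of 4 genes of other lineages only EPCAM had one.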

How the data were processed

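ATAC-seq of 3 G1 and 3 M-phase T98G libraries was analysed; the chromatin fraction and input libraries and the proteomics data were left out. Per the paper's methods, the authors removed adapters with cutadapt, trimmed 1 base from the 3′ end of reads, mapped them to hg19 with Rbowtie (up to 3 locations), removed mitochondrial reads with samtools, and called macs2 broad peaks on merged replicates of each phase. Tool versions, any shift for Tn5 and the joining of HiSeq and NextSeq runs in an M-phase column are not given in the sources used here. The deposited values are a signal: for each peak, the authors' read count after scaling to the size of the smallest library, given to 0.1. The deposited table also holds the authors' log2 change and its SD, which were not used. Unused columns with values of a sample numbered 0.

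Because scaled counts are no raw counts, log2(scaled count + 8) was analysed with limma 3.58.1 (R 4.3.3, variance trended on the mean), without covariates. Fold changes are on that scale, which understates those of low peaks. A peak was tested if 3 or more libraries reached the equivalent of 10 counts at the median library size and the total reached 15, as 73121 of 129347 peaks did. p-values were adjusted over all of these by Benjamini-Hochberg. Within rounding, 99.91% to 100% of values in a library were whole multiples of 1 read, giving 4333935 to 5365024 reads in peaks in G1 and 12470564 to 14202790 in M-phase. On these reads edgeR 4.0.16 called 9899 peaks higher and 9025 lower, and DESeq2 1.42.0 called 9608 and 8383, against 10439 and 9548 with limma. Other steps used Python 3.11.15, numpy 2.4.6, pandas 2.3.3 and matplotlib 3.10.9.

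The main peak of a gene is the one over its TSSs with the highest mean. Values in every library are given for the 3 largest and 3 smallest changes of main peaks in each class, the highest mean, called falls, and inducible members. The members, classes and gene lists were chosen with earlier results of these data known.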

Additional observations from a re-analysis of the deposited data

How the results depend on the processing

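The 36 higher and 1 lower of the 52 peaks were 34 and 1 with TMM scaling and 36 and 1 with DESeq2 size factors, without a filter, with a minimum of 10 in every library (51 peaks tested), with a pseudocount of 1, with edgeR and DESeq2 on recovered reads, and with the replicate block. Replicate numbers did not pair the libraries (correlations of deviations 0.01, −0.01 and 0.03), and with the replicate block 10881 of all peaks were higher and 10063 lower, with the calls of the 52 peaks unchanged in number. The number of higher peaks was 23 with trended loess, 22 with equal promoter medians and 21 when peaks over a TSS of another gene were left out, which removes peaks. The number lower was 2 with loess, 3 with an equal total in peaks, 4 with equal promoter medians, 0 without peaks over another gene's TSS, and 0 to 1 with a library left out. The median log2 change was 0.35, 0.40 and 0.27 with loess, equal total and equal promoter medians. For the core particle, 6 peaks were higher with loess, with equal promoter medians and without shared peaks, 1 was lower with loess, 1 with equal total and 2 with equal promoter medians, and the medians were 0.26, 0.34 and 0.21. For the lid or base, 8 were higher with loess and 8 with equal promoter medians, and the medians were 0.35, 0.40 and 0.27. For assembly or activator genes, 6 were higher with equal promoter medians and 4 without shared peaks, 2 were lower with equal total, 2 with equal promoter medians and 0 without shared peaks, and the medians were 0.44, 0.40 and 0.27, or 0.657 to 0.922 with a library left out. Of the pathway peaks, 7 were higher with loess, and 1 was lower with TMM, 8 with loess, 4 with equal total and 6 with equal promoter medians. The signs of 15 of 374 values of the 22 peaks with full values turned: PSMA1 (TMM −0.042, loess −0.43, equal total −0.26, equal promoter medians −0.39, without G1 replicate 2 −0.075), PSMA7 (loess −0.16), PSMB7 (equal total −0.01, equal promoter medians −0.13), PSMC2 (loess −0.005, equal promoter medians −0.11), PSMD14 (loess −0.21, equal total −0.064, equal promoter medians −0.19) and PSMF1 (loess −0.058, equal promoter medians −0.03). Another 9 values no longer passed the threshold and 7 newly passed it. The causes of these differences were not tested. Depth limits the peaks of low count, where a change could be missed.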
